A study of Mus musculus with 6 samples.

Results

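The 9 genes described here, Braf, Flt1, Kdr, Pdgfra, Pdgfrb, Tek, Kit, Fgfr1 and Ret, encode kinases that regorafenib is known to bind, Csf1r left aside. They were taken by symbol from the 54446 genes of the count table, and all 9 had a row. RNA was sequenced from bone marrow-derived macrophages (BMDMs) of male BALB/c mice of 6 to 8 weeks, grown for 7 days in medium with 20% L929-conditioned medium, the source of CSF-1. The cells were left unpolarized (M0), given LPS at 50 ng/mL together with 20 ng/mL of IFN-γ (M1) or given 20 ng/mL of IL4 (M2). A control and a regorafenib library were made from each of these 3 states, at 1 library per condition and 6 libraries in all. By the study's methods, regorafenib was given at 1 µM, 1 hour ahead of the 24 hours of polarization in M1 and M2. Its timing in M0, which was not polarized, is not given in the sources used here. Libraries held between 25359309 and 34898342 counts.

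Regorafenib is an oral inhibitor of several kinases. Its targets include the receptors of VEGF (Flt1, also called VEGFR1, and Kdr, also called VEGFR2), the angiopoietin receptor Tek (TIE2), the PDGF receptors Pdgfra and Pdgfrb, the stem cell factor receptor Kit, the FGF receptor Fgfr1, the GDNF family receptor Ret, and Braf, a cytoplasmic kinase that passes signals from RAS to MEK and ERK. The receptors are single-pass membrane tyrosine kinases that pair and phosphorylate each other when a ligand binds. Kdr and Tek are best known from endothelial cells, the PDGF receptors from fibroblasts and mural cells, Kit from mast cells and blood progenitors and Ret from neurons, while Flt1 is also known from monocytes and macrophages. The drug binds the kinase proteins, whereas the values below are transcript counts.

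In GRCm38 coordinates, Pdgfra (chromosome 5, 75152292 to 75198215, plus strand), Kit (75574916 to 75656722, plus strand) and Kdr (75932827 to 75978458, minus strand) lay in that order on chromosome 5, with 376700 and 276104 bases between them. Flt1 lay on the same chromosome (147561604 to 147726011, minus strand). Braf (39603237 to 39725463) and Ret (118151745 to 118197718) were on the minus strand of chromosome 6, Tek (94739289 to 94874976) on the plus strand of chromosome 4 and Fgfr1 (25513654 to 25575718) on the plus strand of chromosome 8. Braf overlapped Ndufb2 on the opposite strand and the pseudogene Fth-ps2, Fgfr1 overlapped the antisense gene Gm16159, and Pdgfra overlapped 3 small genes. Whether counting used the strand is not given in the sources used here, so reads of these overlaps cannot be assigned with certainty.

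The 250 bases upstream of the start are shown for Flt1 and Kdr, which were both lower with regorafenib in M0 and lay on opposite sides of 0 in M2 against M0, and for Braf, which had the smallest ratio of highest to lowest CPM among the expressed members. They come from RefSeq (GRCm38.p6) and were chosen after the values and the sequences were seen. Capitals mark the cAMP response element TGACGTCA, the binding motif of Creb1, a factor that the study followed under regorafenib. The Flt1 window was chr5:147726012-147726261, the Kdr window chr5:75978456-75978705 and the Braf window chr6:39725464-39725713, all read on the minus strand.
Flt1: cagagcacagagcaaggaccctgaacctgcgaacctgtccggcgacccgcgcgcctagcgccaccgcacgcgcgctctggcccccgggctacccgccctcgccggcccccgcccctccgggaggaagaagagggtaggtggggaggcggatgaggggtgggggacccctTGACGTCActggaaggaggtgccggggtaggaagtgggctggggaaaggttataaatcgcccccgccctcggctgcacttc
Kdr: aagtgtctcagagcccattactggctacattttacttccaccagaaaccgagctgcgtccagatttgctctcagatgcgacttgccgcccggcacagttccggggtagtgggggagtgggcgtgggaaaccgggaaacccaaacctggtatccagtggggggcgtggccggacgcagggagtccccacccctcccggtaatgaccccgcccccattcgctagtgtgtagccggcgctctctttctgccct
Braf: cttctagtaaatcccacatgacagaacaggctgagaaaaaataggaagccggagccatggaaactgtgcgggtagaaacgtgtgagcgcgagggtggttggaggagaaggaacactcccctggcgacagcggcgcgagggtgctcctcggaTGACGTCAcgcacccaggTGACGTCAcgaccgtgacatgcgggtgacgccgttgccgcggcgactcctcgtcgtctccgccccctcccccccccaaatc

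The element stood 81 to 74 bases before the start in Flt1, and at 99 to 92 and 81 to 74 bases in Braf. The windows of Kdr and of the other 3 members searched (Kit, Tek and Pdgfra, not shown) held none, so that it was in 2 of 6, and 1.62% of 27025 mouse promoter windows of this length held at least 1. Flt1 also had the TATA box letters TATAAA at 31 to 26 bases, found in 13.0% of windows. The letters TGANTCA (AP-1, 6.87% of windows) and the STAT6 motif (TTC and GAA spaced by 4 bases, 5.87%) were in none of these windows on either strand. The motifs were also chosen after the sequences were seen, so the 2 of 6 beside 1.62% is no test of enrichment. A match is a description of letters in the window, not of binding.

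Levels of the 9 genes ranged from 0 to 7702 counts in a library. At 1 CPM (counts per 1000000, on library sizes corrected with edgeR's TMM) or more in at least 1 library, 6 of the 9 were expressed, namely Flt1, Kdr, Fgfr1, Pdgfrb, Kit and Braf. Kdr, Fgfr1, Pdgfrb and Braf were at 1 CPM or more in all 6 libraries. Pdgfra, Tek and Ret stayed under 1 CPM everywhere. In such bulk RNA, fewer cells that carry a transcript and less of it per cell cannot be told apart.

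Flt1, a high-affinity VEGF receptor that also binds placental growth factor, had the widest range of CPM on a log scale. Its counts were 478 in the M0 control and 234 in M0 with regorafenib, 37 and 10 in M1, and 6879 and 3014 in M2. In CPM these were 15.6 and 7.10, 1.43 and 0.415, and 188 and 108. Both M2 libraries were thus above both M0 libraries, which were above both M1 libraries. Within every state the regorafenib library was the lower.

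Kdr, the main signalling receptor for VEGF-A, had 1144 counts in the M0 control and 588 with regorafenib, whereas M1 held 377 and 641 and M2 held 906 and 246. These were 37.2 and 17.8 CPM, 14.6 and 26.6 CPM, and 24.8 and 8.79 CPM. The control was the higher library in M0 and M2, and the regorafenib library was the higher in M1. Tek had 8 and 6 counts in M0, 0 in both M1 libraries, and 6 and 4 in M2. The floor of 3 counts, taken as the limit that a count of 0 allows, was 0.116 CPM in the M1 control and 0.1245 CPM with regorafenib.

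Fgfr1 was the most abundant member per kilobase of exon in both M0 and both M2 libraries. Its counts were 4215 and 2758 in M0, while M1 held 163 and 110 and M2 held 7702 and 2967 (control and regorafenib in turn), or 137 and 83.7, 6.31 and 4.56, and 211 and 106 CPM. Both M1 libraries lay below all 4 others, and the regorafenib library was the lower of each pair.

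Pdgfrb, which binds PDGF-BB and PDGF-DD, had 218 and 394 counts in M0, while M1 held 404 and 599 and M2 held 229 and 375, in the same order. These were 7.10 and 11.95 CPM, 15.6 and 24.9 CPM, and 6.27 and 13.4 CPM. The regorafenib library was the higher in each state, and both M1 libraries were above all 4 others. The gene lies on chromosome 18 (GRCm38, 61045150 to 61085061, plus strand) and ends 15536 bases before Csf1r. Pdgfra had 7 and 12 counts in M0, while M1 held 3 and 1 and M2 held 8 and 6, so it was at or under the floor of 3 counts in M1.

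Kit, the receptor of stem cell factor, had 8 and 15 counts in M0, while M1 held 35 and 107 and M2 held 2 and 3. It reached 1 CPM in M1 alone, at 1.35 CPM in the control and 4.44 CPM with regorafenib. Both M2 libraries were at or under the floor. Ret had 1 count in the M2 control and 0 in the other 5 libraries, where the limit of 3 counts corresponds to between 0.0910 and 0.1245 CPM.

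Braf had the smallest ratio of highest to lowest CPM among the expressed members, between 24.8 CPM (761 counts) in the M0 control and 58.2 CPM (1503 counts) in the M1 control. The regorafenib libraries were at 31.6 CPM (1041 counts) in M0, 53.7 CPM (1294 counts) in M1 and 28.5 CPM (798 counts) in M2, and the M2 control was at 27.2 CPM (993 counts). Both M1 libraries were above all 4 others.

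**Figure D1:**
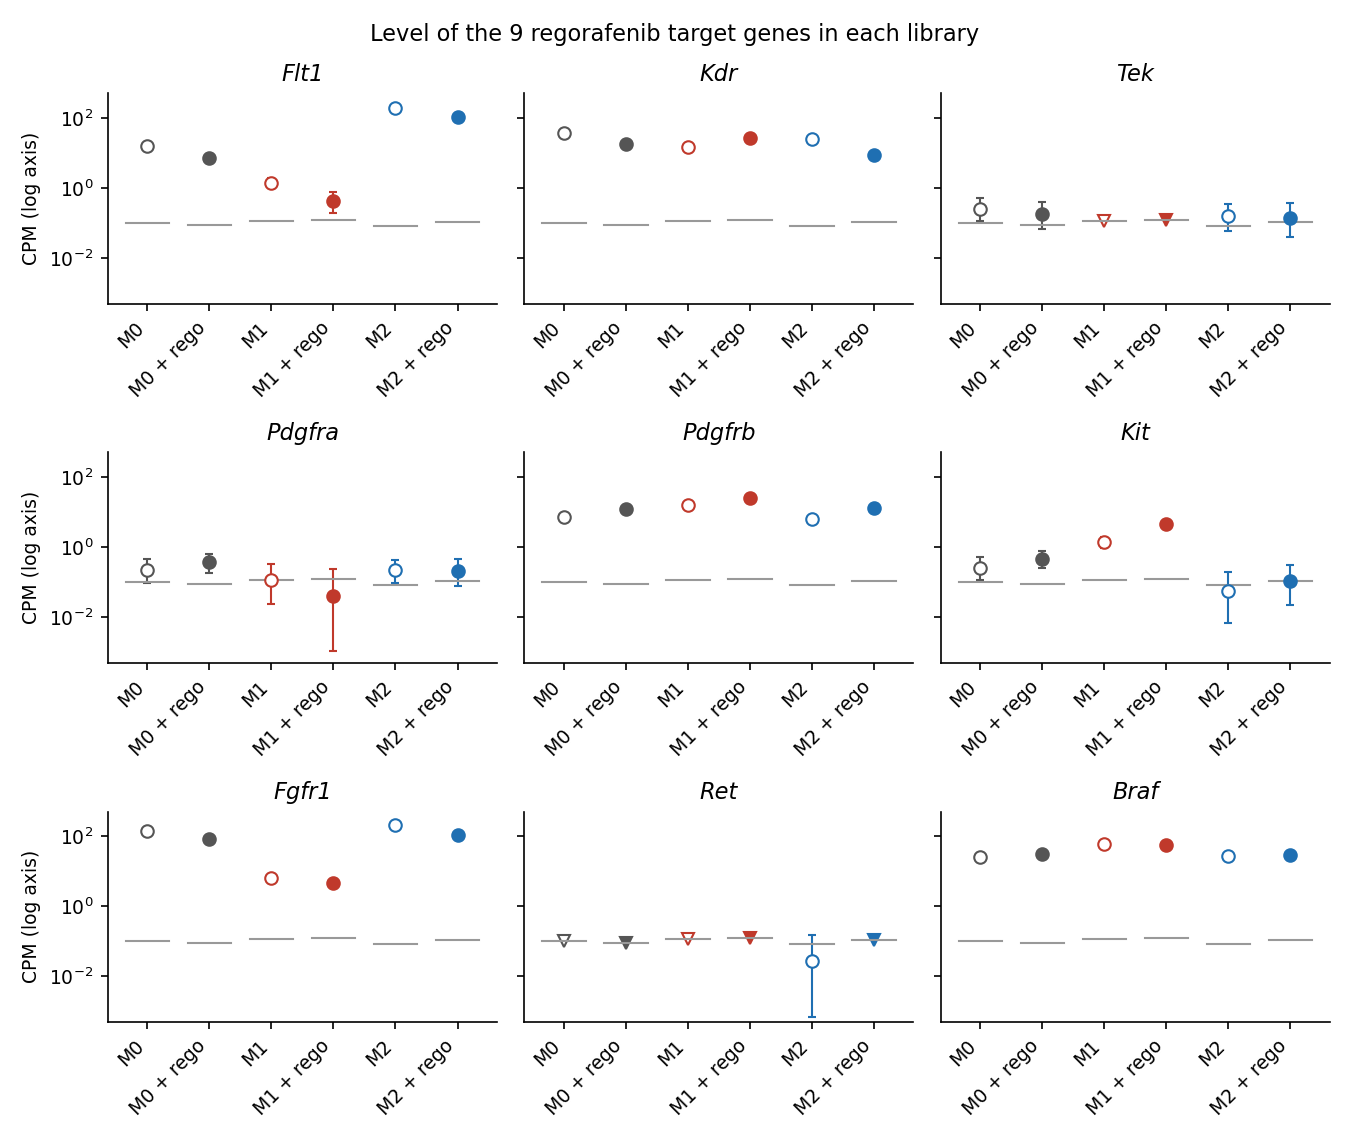
CPM (log axis) of the 9 genes in the 6 libraries, with open points for controls, filled points for regorafenib (rego), 95% Poisson intervals of the count, grey lines at the floor of 3 counts and triangles on that line for a count of 0. Flt1 ran from 0.415 CPM in M1 with regorafenib to 188 CPM in the M2 control, whereas Braf stayed between 24.8 and 58.2 CPM.

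Genes were compared with each other only as CPM per kilobase of exon. On this scale Fgfr1 led in the M0 control (13.9), followed by Kdr (4.12), Braf (1.79), Pdgfrb (1.30) and Flt1 (1.15), the last pair with overlapping intervals. In the M2 control Fgfr1 (21.4) and Flt1 (14.0) stood above Kdr (2.75), Braf (1.96) and Pdgfrb (1.15). Braf led in the M1 control (4.20), where Fgfr1 was at 0.639 and Flt1 at 0.106. With regorafenib in M1, Pdgfrb led (4.54). The exon length used moves this order. With the longest transcript in place of all exons, the order was the same in 2 of the 6 libraries only (the M1 and M2 controls), and Braf led in M1 with regorafenib.

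Among the 14917 genes that reached 10 counts in any library, the level of Fgfr1 per kilobase was at the 85.3 percentile in the M2 control and at the 25.5 percentile in the M1 control. Flt1 was at the 78.1 and 9.6 percentiles in the same libraries. Kdr and Pdgfrb stayed between the 28.5 and 54.8 percentiles and Braf between 35.8 and 53.1. For comparison, Csf1r, the CSF-1 receptor on which these cells depend, had between 41775 and 101392 counts. Per kilobase it was at 295 to 533 CPM, between the 99.0 and 99.7 percentiles.

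The libraries had the markers of macrophages, and 8 of 8 (Adgre1, Cd68, Itgam, Lyz2, Mertk, Fcgr1, Csf1r and Cd14) were above the floor in every library, at 21870 to 48730 CPM in sum. The endothelial markers summed to between 38.2 and 313 CPM, of which most was Vwf (624 to 8721 counts), with 3 to 5 of 8 above the floor. Cldn5 had 0 or 1 count, Robo4 between 0 and 2, and Cdh5 between 3 and 22. Pecam1 had 307 and 256 counts in M1 and 2 to 38 in the other libraries, and Esam 85 and 27 counts in M1 and 1 to 16 in the others. The sum was higher with regorafenib in M0 (105 and 192 CPM) and M2 (188 and 313 CPM) and lower in M1 (49.1 and 38.2 CPM), opposite to Kdr in all 3 states. Vwf followed the sum, whereas Cdh5 was lower with the drug in each state, at 18 and 4 counts in M0, while M1 held 22 and 8 and M2 held 21 and 3. The part of endothelial cells in the values of Kdr and Flt1 was not tested.

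Of the fibroblast markers, 5 to 7 of 8 were above the floor, at 3.81 to 11.0 CPM in sum. Their sum was higher with regorafenib in M0 (3.81 and 11.0 CPM) and M2 (4.22 and 6.72 CPM) and lower in M1 (9.60 and 7.18 CPM), whereas Pdgfrb was higher in all 3 states. The lower sum in M1 was mostly Dcn (100 and 39 counts). Col1a1 (37 and 114 counts) and Col1a2 (46 and 188 counts) were past the fold higher in M0, and had 55 and 54 and 65 and 64 counts in M1. The mural markers had 4 of 6 above the floor and Rgs5 at 0 in all libraries. Their sum was lower with regorafenib in M0 (133 and 25.5 CPM), M1 (3.79 and 3.44 CPM) and M2 (122 and 45.8 CPM), opposite to Pdgfrb, and was mostly Cspg4 in M0 and M2 but not in M1 (15 and 4 counts). Acta2 was higher with regorafenib in M0 (49 and 155 counts), as Pdgfrb was, and had 47 and 41 counts in M1 and 69 in both M2 libraries. The part of both lists in the values of Pdgfrb was not tested.

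Of the mast cell and progenitor markers, 1 or 2 of 8 were above the floor, at 3.95 to 15.5 CPM in sum. Cpa3, Ms4a2, Fcer1a, Tpsb2 and Cma1 were at 0 in all 6 libraries. Hdc, the histidine decarboxylase, had 96 and 262 counts in M1, and 12, 0, 1 and 2 in the M0 control, M0 with regorafenib, the M2 control and M2 with regorafenib. Hdc and Kit were both highest in M1 with regorafenib and next in the M1 control, but within M0 they lay in opposite order (12 and 0 counts of Hdc, 8 and 15 of Kit). Cd34, a progenitor marker, was lowest in M1 (3 and 1 counts, against 237 to 478 in the other libraries), and the sum of the list was 3.95 and 10.9 CPM there, beside 15.5 and 7.22 CPM in M0 and 13.2 and 12.2 CPM with IL4. The part of such cells in the values of Kit was not tested. Granulocyte markers summed to between 84.8 and 158 CPM, with 2 or 3 of 8 above the floor.

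The study sequenced these cells to look for mechanisms behind the action of regorafenib on M2 polarization. Each state held 1 control and 1 regorafenib library, so no difference within a state has a replicate check and none was tested. A gene was taken as past the fold at a log2 ratio of at least 1 in size, a 95% interval of counting error that leaves out 0, and at least 10 counts in the higher library.

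In M0, Flt1 was 2.19-fold lower with regorafenib (log2 ratio −1.13, interval −1.36 to −0.90) and Kdr 2.09-fold lower (−1.06, −1.21 to −0.92). These were the 2 of 7 members with enough counts that were past the fold lower, against 10.2% of 13964 genes, and 0 were past it higher, against 8.27%. Pdgfrb had a log2 ratio of 0.75 (0.510 to 0.997) and Fgfr1 of −0.71 (−0.78 to −0.64), both short of the fold with intervals that leave out 0. Braf was at 0.35 (0.21 to 0.49). The intervals of Kit (0.81, −0.52 to 2.25) and Pdgfra (0.68, −0.79 to 2.26) spanned 0.

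In M1, Kit was 3.28-fold higher with regorafenib (1.71, 1.15 to 2.31) and Flt1 3.45-fold lower (−1.79, −2.96 to −0.75), the latter on 37 and 10 counts. Of 6 members, 1 was thus past the fold in each direction, where 1.27% of 13440 genes were past it higher and 2.47% lower. The call of Flt1 was lost when at least 50 counts were asked of the higher library, leaving 1 member, and with 1 CPM added to both values (−0.78). Kdr was at 0.87 (0.68 to 1.05), opposite in sign to M0. Pdgfrb was at 0.67 (0.48 to 0.85), Fgfr1 at −0.47 (−0.83 to −0.11) and Braf at −0.12 (−0.22 to −0.01).

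In M2, Kdr was 2.82-fold lower (−1.50, −1.71 to −1.29) and Pdgfrb 2.14-fold higher (1.10, 0.85 to 1.34). Of 5 members with enough counts, 1 was past the fold higher, against 5.23% of 13813 genes, and 1 lower, against 4.11%. Pdgfrb was just inside the fold, and at 0.99 with 1 CPM added. Fgfr1 was just outside it at −0.99 (−1.05 to −0.93), on 7702 and 2967 counts. Flt1 was at −0.81 (−0.87 to −0.74) and Braf at 0.07 (−0.07 to 0.20), which spans 0.

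**Figure D2:**
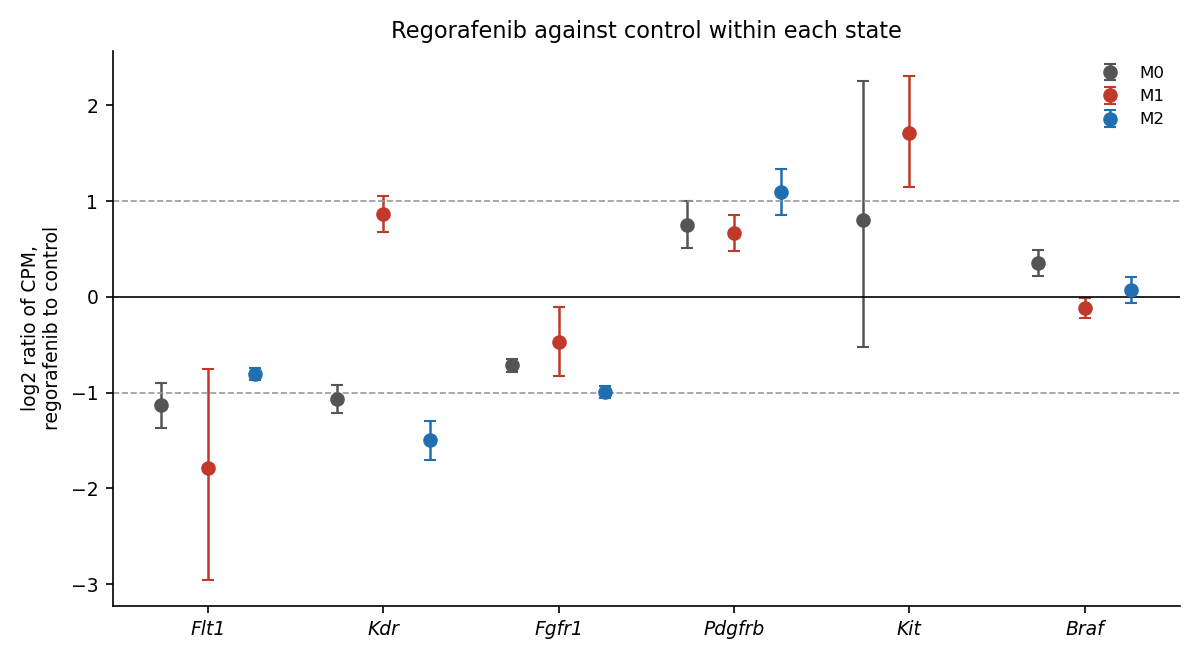
Log2 ratio of regorafenib to control within M0, M1 and M2 for the 6 expressed members, with 95% intervals of counting error and dashed lines at the fold of 2, with no point for Kit in M2, where both libraries were at the floor. Flt1 and Fgfr1 sit below 0 and Pdgfrb above 0 in all 3 states, whereas Kdr is below 0 in M0 and M2 and above 0 in M1.

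Across the 3 states, the test of the drug was edgeR's quasi-likelihood test with a block for the state, so that its error holds how far the states differ in their response. After Benjamini-Hochberg adjustment, 0 of the 6 members tested and 0.0% of 14123 genes passed 0.05, with 1646 genes at an unadjusted p under 0.05. Flt1 had a log2 fold change of −1.10 ± 0.20 (SE, adjusted p = 0.301), lower in 3 of 3 states. Fgfr1 was at −0.74 ± 0.15 (adjusted p = 0.306), likewise lower in 3 of 3. Pdgfrb was at 0.84 ± 0.18 (adjusted p = 0.306), higher in 3 of 3. Kit was at 1.33 ± 0.39 (adjusted p = 0.368), Kdr at −0.59 ± 0.47 (adjusted p = 0.573) and Braf at 0.10 ± 0.15 (adjusted p = 0.765).

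This count of 0 depends on the settings. With no filter on low counts, 333 of 24938 genes passed, among them 2 of 9 members, Flt1 and Fgfr1. With DESeq2, 297 of the 12851 genes given an adjusted p passed, among them Flt1, Fgfr1 and Pdgfrb. Without the M1 libraries, 892 of 13567 genes passed. Among these were 3 of 5 members, Flt1 (−0.96), Fgfr1 (−0.85) and Kdr (−1.27, adjusted p = 0.0378). Over the alternatives, the adjusted p ranged from 0.00538 to 1.0 for Flt1, from 0.0192 to 1.0 for Fgfr1, from 0.0219 to 1.0 for Pdgfrb and from 0.0378 to 1.0 for Kdr.

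Polarization was compared between the controls, again with 1 library per side. In the M1 control against the M0 control, Fgfr1 was 21.8-fold lower (log2 ratio −4.44, −4.68 to −4.22), Flt1 10.9-fold lower (−3.44, −3.97 to −2.96) and Kdr 2.55-fold lower (−1.35, −1.52 to −1.18). Kit was 5.20-fold higher on 8 and 35 counts (2.38, 1.25 to 3.70), Braf 2.35-fold higher (1.23, 1.10 to 1.36) and Pdgfrb 2.20-fold higher (1.14, 0.90 to 1.38). All 6 members with enough counts were thus past the fold, 3 in each direction, where 16.7% of 14168 genes were past it higher and 18.7% lower. Tek, at 8 and 0 counts, was too low to judge by the fold. It was 2.24-fold lower with the 0 set to the floor of 3 counts, and its log2 interval of counting error reached up to −0.52.

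The scaling bears on this comparison. With the total counts in place of TMM, the median log2 ratio of all genes moved from −0.05 to −0.49 and the share of higher calls from 47.2% to 29.4%. Braf (0.79) and Pdgfrb (0.70) were then short of the fold, and Kdr was at −1.79 and Fgfr1 at −4.88. With 1 CPM added to both values, Kit was at 0.90, short of the fold, and Flt1 at −2.77, still past it.

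Over both drug arms, edgeR's quasi-likelihood test called 5 of 6 members in M1 against M0, beside 36.6% of 14123 genes. Fgfr1 (−4.32 ± 0.21, SE, adjusted p = 0.00026) and Flt1 (−3.65 ± 0.28, adjusted p = 0.000707) fell, in 2 of 2 arms. Kit (2.89 ± 0.42, adjusted p = 0.00436), Braf (0.997 ± 0.191, adjusted p = 0.0105) and Pdgfrb (1.10 ± 0.23, adjusted p = 0.0132) rose, in 2 of 2 arms. The call of Pdgfrb was lost with total counts (0.67) and without the drug as a block (1.09). Kdr was at −0.24 ± 0.56 (adjusted p = 0.771), its ratio being −1.35 between the controls and 0.58 (0.41 to 0.74) between the regorafenib libraries. The 2 libraries of a state are not said to be separate cultures, so these p-values measure only the spread between these samples.

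In the M2 control against the M0 control, Flt1 was 12.1-fold higher (3.60, 3.46 to 3.73). It was the 1 of 5 members past the fold higher, against 3.8% of 13830 genes, and 0 were past it lower, against 6.98%. Fgfr1 was at 0.62 (0.57 to 0.67) and Kdr at −0.59 (−0.71 to −0.46), both short of the fold, and the intervals of Braf (0.13, −0.003 to 0.27) and Pdgfrb (−0.18, −0.45 to 0.10) spanned 0. Between the regorafenib libraries, Flt1 was 15.2-fold higher in M2 (3.92, 3.73 to 4.12), and the M2 library with regorafenib (3014 counts) was above the M0 control (478 counts). Kdr was 2.03-fold lower (−1.02, −1.24 to −0.80), and Kit 4.24-fold lower on 15 and 3 counts (−2.09, −4.52 to −0.26). Of 7 members with enough counts there, 1 was thus past the fold higher and 2 lower. Of 13841 genes, 538 were past it higher and 562 lower.

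Flt1 was also the 1 of 6 members that rose in M2 against M0 over both arms (3.77 ± 0.24, SE, adjusted p = 0.00967), beside 0.22% of 14123 genes. Without the drug as a block, 0 genes passed, and Flt1 kept a log2 fold change of 3.71. Fgfr1 was at 0.49 ± 0.18 (adjusted p = 0.48) and Kit at −2.10 ± 0.60 (adjusted p = 0.324). The controls serve both the drug and the polarization comparisons, so the ratios of a gene in the 2 kinds of comparison share those libraries.

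**Figure D3:**
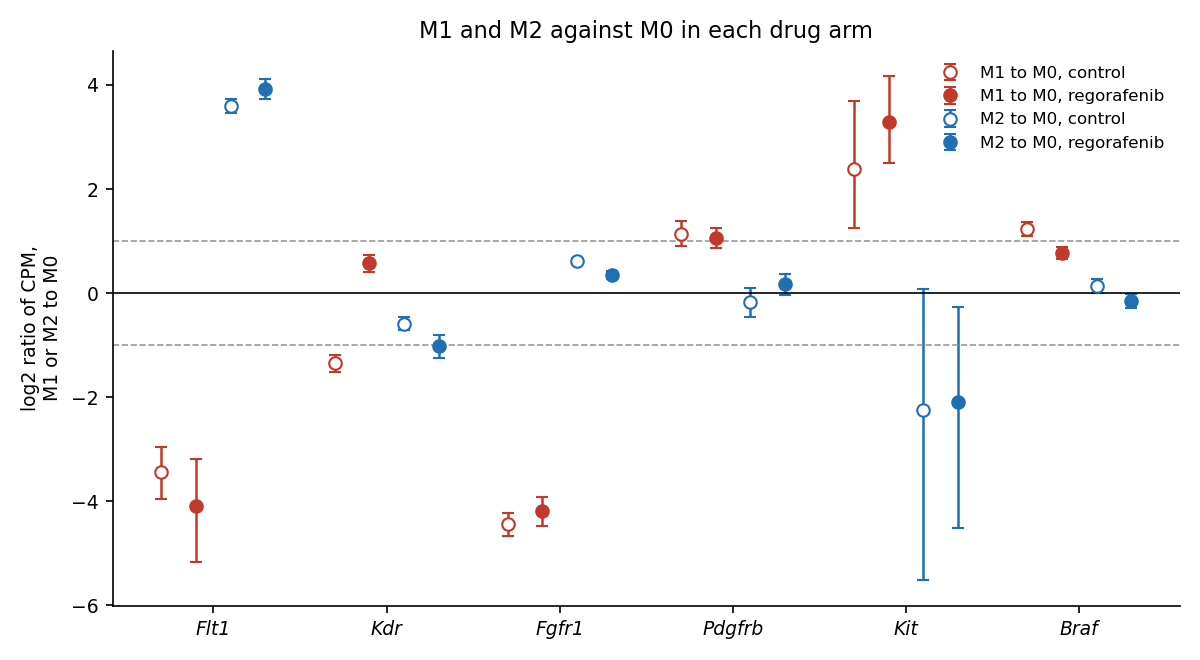
Log2 ratio of M1 (red) and M2 (blue) to M0 for the 6 expressed members, open points between controls and filled points between regorafenib libraries, with 95% intervals of counting error and dashed lines at the fold of 2. Flt1 lies at −3.44 in M1 and 3.60 in M2 between the controls, and Kdr changes sign between the drug arms of M1 (−1.35 and 0.58).

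The ligands of these receptors were counted from a list of 21 genes. In M0, 3 of 11 with enough counts were past the fold higher with regorafenib and 4 lower (8.27% and 10.2% of all genes), with a median log2 ratio of −0.62 beside 0.01 for all genes. In M1 they were 0 higher and 1 lower of 11, beside 1.27% and 2.47% of all genes (median −0.03, all genes −0.02). In M2 they were 1 higher and 2 lower of 10, beside 5.23% and 4.11% (median −0.44, all genes −0.03). Vegfa, the ligand of both Flt1 and Kdr, had 134 and 312 counts in M0, while M1 held 6070 and 3026 and M2 held 31 and 92, control and regorafenib in turn. It was highest in M1, where Flt1 was lowest. Its log2 ratio to control was 1.12 in M0, −0.90 in M1 and 1.95 in M2.

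Kitl, the stem cell factor that binds Kit, had 1909 and 613 counts in M0, while M1 held 85 and 92 and M2 held 2793 and 954. It was lower with regorafenib in M0 (log2 ratio −1.74) and M2 (−1.17), and lowest in both M1 libraries, in which Kit was highest. Pdgfb, whose product binds Pdgfrb, ranged from 852 to 2811 counts and was not past the fold with the drug. Pdgfc, a ligand of Pdgfra, had 227 and 1179 counts in M0 (2.28), while M1 held 7 and 11 and M2 held 1379 and 1327. Angpt2, a ligand of Tek, had 140 and 50 counts in M0, while M1 held 2 and 0 and M2 held 233 and 64, with log2 ratios of −1.59 in M0 and −1.48 in M2.

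In M1 against M0 over both arms, 9 of 11 ligands tested passed the adjusted p, 4 higher and 5 lower, beside 36.6% of all genes. Vegfa (4.88), Vegfc (3.62), Pgf (3.24) and Artn (9.45, with 0 counts in both M0 libraries, so that the value depends on the prior count) were the higher, and Angpt2 (−6.15), Pdgfc (−5.66), Kitl (−3.24), Pdgfa (−2.63) and Vegfb (−2.59) the lower. In M2 against M0, 0 of 11 passed, beside 0.22%.

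**Figure D4:**
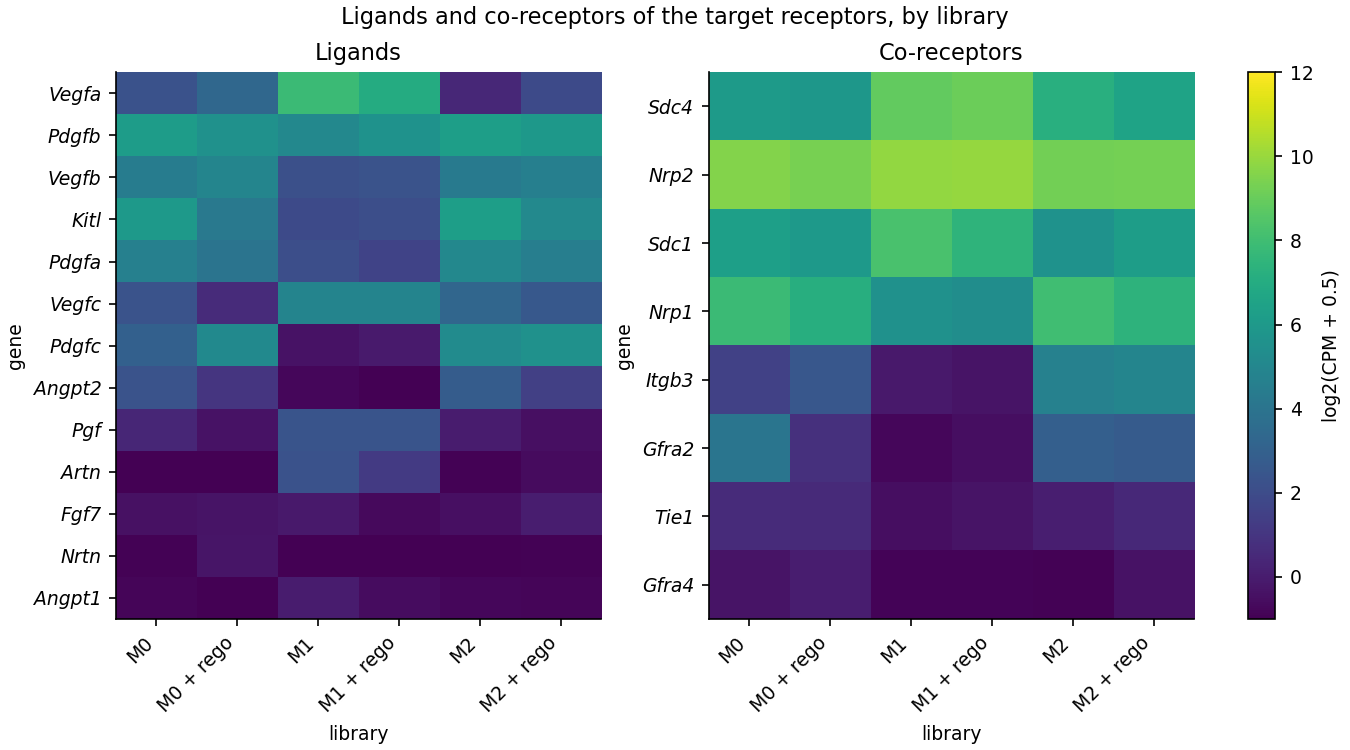
Level of 13 ligands and 8 co-receptors that reached 10 counts in any library, as log2(CPM + 0.5) in colour, by library. Each along its own row, Vegfa is brightest in the M1 columns (235 and 126 CPM) and Kitl darkest there (3.29 and 3.82 CPM).

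Of 13 co-receptors, 1 of 8 was past the fold higher with regorafenib in M0 (Itgb3, log2 ratio 1.13) and 1 lower (Gfra2, −3.66), beside 8.27% and 10.2% of all genes, and 0 of 5 in M1 (1.27% and 2.47% of all genes) and 0 of 7 in M2 (5.23% and 4.11%). Nrp2 and Nrp1, the neuropilins that bind VEGF beside Kdr, had 17657 to 24902 and 974 to 9357 counts. In M1 against M0 over both arms, 2 of 7 rose, Sdc4 (3.03) and Sdc1 (1.75), and 4 fell, Gfra2 (−5.45), Itgb3 (−3.31), Nrp1 (−2.06) and Tie1 (−2.02), the partner of Tek, beside 36.6% of all genes called.

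Of 19 genes of the signalling chain around Braf, upstream and downstream of it, 0 of 18 with enough counts were past the fold with regorafenib in M1 (1.27% and 2.47% of all genes higher and lower) and 0 of 19 in M2 (5.23% and 4.11%). Their medians were −0.03, −0.12 and 0.05 in M0, M1 and M2, beside 0.01, −0.02 and −0.03 for all genes. In M1 against M0 over both arms, Map2k1 (1.92), which encodes the kinase MEK1, and Rap1b (0.74) rose, and Rps6ka1 (−0.94) and Rps6ka3 (−0.70) fell. These were 2 higher and 2 lower of 19 tested, beside 36.6% of all genes called.

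Of 10 other genes of kinases named as regorafenib targets, 2 of 7 were past the fold lower in M0, Epha2 (442 and 19 counts, log2 ratio −4.64) and Mapk11 (228 and 102 counts, −1.26), beside 10.2% of all genes. The same 2 were past it in M2, Epha2 with 755 and 34 counts (−4.09) and Mapk11 with 134 and 50 (−1.04), beside 4.11%, and 0 of 6 were past it in M1, where 1.27% of all genes were past it higher and 2.47% lower. Epha2, an ephrin receptor, had 9 counts in both M1 libraries.

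The genes with the pattern most like each member were those with the highest Pearson r of log2(CPM + 0.5) over the 6 libraries, among 10505 genes with a mean of at least 100 counts. They share the libraries and their depth, and many genes are alike by this measure with so few points. For Flt1 they were Zfp706 (r = 0.996), Mrtfb (0.994) and Lipn (0.991), and Lipn had 12946 counts in the M2 control and 84 in M1 with regorafenib. For Fgfr1 they were Cux1, Mical2 and Emp1 (each 0.998), and for Braf Tlr6, Nod1 and Tgif1 (each 0.999). For Kdr they were Gfer, Zfp593 and Ttc32 (each 0.984), for Pdgfrb Sema4a (0.980), Trmo (0.976) and Fam49a (0.975), and for Kit Ppt2 (0.990), Zc3hc1 (0.987) and St3gal3 (0.984). This r does not measure the size of a change. Zfp706 (1424 to 5239 counts) and Zc3hc1 (506 to 663 counts) varied far less than Flt1 and Kit did. The pattern of Kit included 2 and 3 counts in M2, at or under the floor. Like Pdgfrb, Sema4a had more counts with regorafenib in each state (M0 held 875 and 2107, M1 held 2005 and 3570 and M2 held 747 and 1382).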

How the data were processed

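By the study's methods, reads of 100 bases from poly(A) RNA went through cutadapt 2.4, and STAR 2.7.2a then mapped them (GRCm38) and counted them per gene (Gencode M19). The authors deposited these raw counts for 6 libraries, with 1 library for each of the 6 conditions. The strand column taken is not given in the sources used here. Names and positions are from Gencode M21, which matched 53229 of 54446 IDs with their version, 1180 without it, and left 37 without a name.

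Counts were scaled with TMM (factors 0.820 to 1.12) in edgeR 4.0.16 and R 4.3.3. CPM have exact Poisson intervals, and log2 ratios have 95% conditional exact binomial intervals of the counts, both for counting error only. A count of 0 was set to 0.5 in a ratio, and 3 counts or fewer were taken as the floor. The study used NOISeq, which simulates replicates, so a fold rule stands in its place. Differences across states were tested with edgeR's quasi-likelihood test after filterByExpr, with state and drug in the model and Benjamini-Hochberg adjustment over all genes. The SE is the log2 fold change over the root of F. Alternatives were total counts, DESeq2 1.42.0, other filters, 1 CPM added, no block and each state left out. Methods were tested on simulated data.

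All 9 members are named, and of each other list the 4 genes with the most reads per kilobase or those past the fold. Members and lists were chosen with earlier results of these data known. The rule would have shown the promoter of Fgfr1, which the RefSeq table used here does not hold, and kinase protein sequences were not used here. The windows and the motifs were instead chosen after the sequences were seen. Some members of the lists and 1 motif are not reported here.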

Additional observations from a re-analysis of the deposited data

Results flagged for a closer look

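For 2 members, the ratios of regorafenib to control in different states had intervals of counting error on opposite sides of 0. The differences themselves were not tested, since each state held 1 library per arm. For Kdr, the log2 ratio of regorafenib to control in M1 minus that in M0 was 1.93, from 0.87 and −1.06. For the same gene, the ratio in M2 minus that in M1 was −2.36, from −1.50 and 0.87. For Braf, the ratio in M1 minus that in M0 was −0.47, from −0.12 and 0.35, and neither of these was past the fold.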

How the results depend on the processing

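With 1 library per condition, ratios have counting error only, and members under 10 counts in both libraries of a pair (Ret and Tek throughout, Pdgfra in M1 and M2, Kit in M2) were too low to judge by the fold with regorafenib. With 1 CPM added, genes past the fold with regorafenib went from 2578 to 1495 in M0, 503 to 154 in M1 and 1290 to 565 in M2, leaving 1 member in M1 and 1 in M2, and from 1492 to 780 in M2 against M0. With at least 50 counts there were 235 in M1 (1 member) and 813 in M2. Across states, the drug gave 333 of 24938 genes (2 of 9 members) with no filter and 297 of 12851 (3 members) with DESeq2. It gave 0 to 892 genes and 0 to 3 members with 1 state left out. The highest of both came without M1, of 13567 genes and 5 members tested. M2 against M0 gave 408 genes with no filter, 412 with DESeq2, and 0 genes and 0 members without the drug as a block. The direction changed for 2 values that passed no threshold, Braf with the drug (0.10, and from −0.024 without the M0 libraries to 0.21 without the M1 libraries) and Pdgfrb in M2 against M0 (0.0009, and −0.056 with total counts). Of the members' ratios, 29 of 29 stayed within the interval with DESeq2 size factors, 27 with 1 CPM added and 22 with total counts. Of the 18 tests of members, 16 kept their direction and side of the threshold with total counts, 16 with no filter, 16 without the block and 15 with DESeq2. The longest transcript moved 27 of 42 levels. The labels give no replicate numbers, and the block for the state pairs the control and regorafenib libraries of each state. Apart from the settings' own construction, the causes of these changes were not tested.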
